A study of Mus musculus with 6 samples.

Results

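Homologous recombination and the wider response to DNA damage were followed through 45 genes, listed by function. The array named 43 of them on at least 1 probe set, a group of short probes read together as 1 value, and all 43 passed the filter on low values, out of 11897 tested genes in all. Rbbp8 and Xrcc2 were not analysed here. Each gene was read through its brightest probe set, judged by the mean over the 6 arrays.

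RNA came from ovaries of mouse embryos at E15.5, E standing for embryonic day. There were 3 arrays labelled as a Dmrt1 knockout, described by the submitters as a conditional removal, and 3 labelled wild type. The strain, the Cre line, the deleted allele and the pooling of animals are not given in the sources used here. The labels number the samples as replicates without saying that they came from separate animals, so p-values measure only how far these samples spread, which may be technical. DMRT1 is a DNA-binding protein with a DM domain, known for its work in germ cells and in sex determination. The comparison asked what changes in the fetal ovary when it is removed.

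Homologous recombination repairs a broken DNA molecule by copying an intact one. Sensor complexes find the break, nucleases trim its ends, the single-stranded DNA is coated by replication protein A (RPA), and BRCA2 with its partners then prepares the strand to pair with the intact copy. The Fanconi anaemia proteins bring the same machinery to crosslinked DNA. In the fetal ovary dividing cells use these proteins at replication forks, and oocytes in meiotic prophase use them on the breaks that they make on purpose. In whole ovaries a change in the number of cells of a type and a change in the RNA of each cell cannot be told apart.

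Promoter windows show what the genes share outside their function. RefSeq windows (GRCm38.p6) from 250 bases before to 50 after a start annotated for the gene were found for 36 of the 45 genes, 39 windows in all. A short form of the E2F site, through which many S-phase genes are controlled, was searched as TTTNNCGC on both strands and lay in 9 of 39 windows (23.1%), against 8.23% of the windows of all tested genes and 5.17% of all 32851 windows. These belonged to Bard1, Brca2, Brip1, Fancg, Mdc1, Msh6, Rad51c and Topbp1, whose log2 differences between knockout and wild type, described further on, ran from -0.35 to 0.24. The CCAAT box, CCAAT on both strands, lay in 25 of 39 windows (64.1%), against 37.7% for tested genes and 37.4% for all windows. ACANTGT, a loose form of the core that DMRT proteins bind with any base allowed in the middle, is its own reverse complement. It lay in 2 windows (5.13%), those of Fancb and Fancl, against 4.04% for tested genes and 7.54% for all windows. Both matches read ACACTGT. The median GC content was 59.7% in the windows of the repair genes and 61.0% in those of tested genes. These matches are letters in a window and were set against no test.

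The windows below, each 300 bases, 5′ to 3′ on the gene's strand, belong to Rpa2, the only gene whose main probe set passed the test, to Rad52, whose other probe set did, to Atr, the gene nearest the threshold among those lower in knockout, and to Mdc1 and Brca2, which hold E2F matches. Capitals mark matches to the 3 motifs. Rpa2 (chr4:132768110-132768409, + strand) held 3 CCAAT boxes, all in reverse orientation (ATTGG), starting at positions -231, -84 and -52 from the gene start. The windows of Rad52 (chr6:119902448-119902747, + strand) and Atr (chr9:95857347-95857646, + strand) held no match to the 3 motifs. Mdc1 (chr17:35841248-35841547, + strand) held an E2F match at -16 and a CCAAT box at -75. Brca2 (chr5:150522371-150522670, + strand) held a reversed E2F match at -168 from the start on which its window was built. The annotated spans of Brca2 and Rad52 begin at 150522297 and 119901722, upstream of these windows. Their windows therefore belong to a later start and do not cover the outermost one.
Rpa2: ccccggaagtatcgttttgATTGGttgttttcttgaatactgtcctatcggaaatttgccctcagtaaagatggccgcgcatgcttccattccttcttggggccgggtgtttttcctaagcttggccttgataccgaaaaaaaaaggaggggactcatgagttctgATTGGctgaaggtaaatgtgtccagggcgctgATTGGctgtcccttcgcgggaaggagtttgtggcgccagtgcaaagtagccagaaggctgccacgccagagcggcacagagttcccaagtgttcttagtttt
Rad52: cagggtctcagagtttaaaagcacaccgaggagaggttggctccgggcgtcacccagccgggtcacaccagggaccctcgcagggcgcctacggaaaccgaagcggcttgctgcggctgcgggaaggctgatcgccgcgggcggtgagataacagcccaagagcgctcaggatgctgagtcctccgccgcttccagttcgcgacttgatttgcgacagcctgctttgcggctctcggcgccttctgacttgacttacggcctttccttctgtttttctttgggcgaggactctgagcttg
Atr: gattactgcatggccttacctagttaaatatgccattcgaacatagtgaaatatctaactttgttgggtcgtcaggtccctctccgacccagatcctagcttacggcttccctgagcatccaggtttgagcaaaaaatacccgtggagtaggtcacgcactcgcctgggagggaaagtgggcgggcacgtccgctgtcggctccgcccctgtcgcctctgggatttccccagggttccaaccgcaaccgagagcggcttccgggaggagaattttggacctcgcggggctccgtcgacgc
Mdc1: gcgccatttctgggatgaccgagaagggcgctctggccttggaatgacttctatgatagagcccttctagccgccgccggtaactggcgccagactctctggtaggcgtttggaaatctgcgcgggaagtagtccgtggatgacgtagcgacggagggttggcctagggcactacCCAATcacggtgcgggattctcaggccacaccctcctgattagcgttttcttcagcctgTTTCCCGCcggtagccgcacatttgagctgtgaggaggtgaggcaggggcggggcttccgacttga
Brca2: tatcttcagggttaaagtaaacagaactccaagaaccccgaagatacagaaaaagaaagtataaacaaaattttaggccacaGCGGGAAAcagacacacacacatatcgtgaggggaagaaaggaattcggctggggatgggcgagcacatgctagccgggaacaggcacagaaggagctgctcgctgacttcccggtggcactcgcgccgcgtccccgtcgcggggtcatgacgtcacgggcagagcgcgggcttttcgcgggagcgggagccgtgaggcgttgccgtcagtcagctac

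Arrays of the same group had pairwise correlations of 0.985 to 0.993 across tested probe sets, and arrays of different groups 0.973 to 0.98. The Dmrt1 probe set was under the filter level of log2 4 on every array (at most 3.7) and checks no label. Xist, the RNA that silences an X chromosome in female cells, averaged log2 1.81 on knockout replicate 1, against 9.85 and 9.75 on the other knockout arrays and 10.68 to 10.91 in wild type, while Y-linked Uty, Kdm5d and Eif2s3y stayed at or under log2 1.93 on all arrays. That array stands apart from its group. Some counts, medians and single genes are given without it too. Others that read highest on it, Fanci, Fignl1 and Ube2t among them, are not. For Gapdh the log2 excess of the 3′ over the 5′ control probe set, which grows as RNA degrades, was 1.13 to 1.52 on knockout arrays and 0.99 to 1.3 on the others, with overlap. The beta-actin control showed a larger excess, 2.45 to 2.75 on knockout and 2.28 to 2.74 on wild-type arrays, also with overlap.

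Read through their main probe sets, the repair genes differed little between the genotypes. Rpa2 rose in knockout, 0 genes fell, and 42 of 43 did not pass the test (limma adjusted p under 0.05). Over all tested genes the same fit called 1.28% as risen and 2.27% as fallen, so 1 of 43 is close to that background. Without knockout replicate 1 the fit called 0.731% as risen and 1.41% as fallen, with 0 of the 43. Without wild-type replicate 1, 2 or 3 it called 0.479% to 0.521% as risen and 0.841% to 0.925% as fallen, again with 0 of the 43, and without knockout replicate 2 it called 1.92% as risen. At an unadjusted p under 0.05, Chek1, Exo1 and Rpa2 were higher (6.98% of 43, against 8.12% of all tested genes) and Atr was lower (2.33%, against 9.33%). The differences on the main probe sets were also bounded. For all 43 genes the 95% interval of that probe set lay within 1 log2 unit of 0, as it did for 91.5% of tested genes. The outermost bounds were -0.88 for Atm and 0.97 for Rad54l. Other probe sets of these genes were not part of this count, and some differed by more, as given further on.

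The differences leaned one way by small amounts. In 35 of 43 genes (81.4%) the knockout mean was the higher, against 53.4% of all tested genes, and the median log2 difference was 0.17 (quartiles 0.11 and 0.26), against 0.02 for all tested genes (quartiles -0.15 and 0.18). The typical standard error of a single gene, 0.17, was as large as that median. The 3 knockout arrays stood apart from the 3 wild-type arrays without overlap in 8 genes on the higher side, 18.6% against 12.3% of tested genes (Chek1, Trp53bp1, Rnf8, Exo1, Rpa1, Rpa2, Fance and Fanci), and in 1 gene, Atr, on the lower side, 2.33% against 11.4%. Arrays of a group differed little in this respect. Relative to the wild-type mean of each gene, the median over the 43 genes was 0.16, 0.10 and 0.15 on knockout replicates 1, 2 and 3, and 0.04, -0.03 and -0.03 on the wild-type replicates. Without knockout replicate 1 the median difference was 0.16, and 32 genes had the higher mean in knockout.

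**Figure D1:**
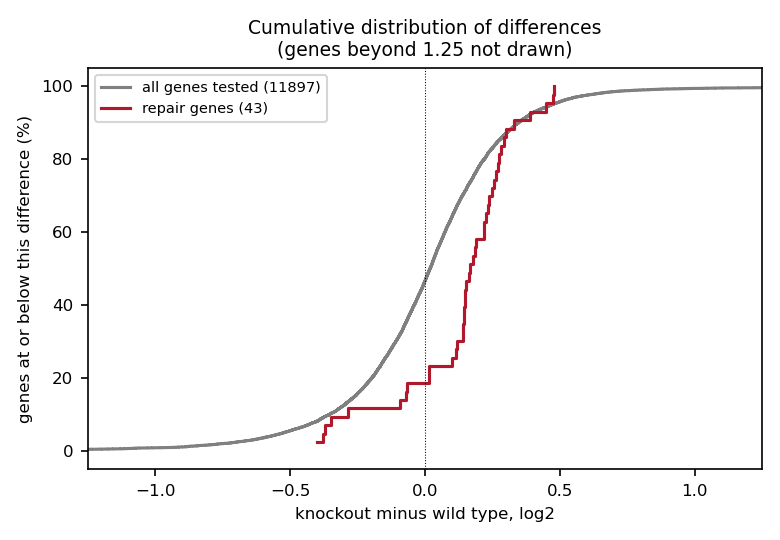
Cumulative share of genes (%, vertical axis) at or below each log2 difference, knockout minus wild type (horizontal axis), for the 43 repair genes (red) and all 11897 tested genes (grey). The red curve lies to the right of the grey one over most of its course, with medians of 0.17 and 0.02, and ends at -0.4 and 0.48 while the grey curve runs on beyond the plotted range.

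RPA, the complex that coats single-stranded DNA, held the gene past the threshold. Rpa2, its middle subunit and the target of checkpoint kinases, read log2 11.13, 10.95 and 10.95 on knockout replicates 1, 2 and 3 and 10.56, 10.47 and 10.57 on the wild-type replicates. Every knockout array lay above every wild-type array. The 1.39-fold rise of Rpa2, 0.48 ± 0.10 in log2 (SE, 3 against 3 arrays), had an adjusted p of 0.0206 by limma. Its other tested probe set was dimmer and overlapped between groups (0.32 ± 0.32, limma adjusted p = 0.638). The call ended when knockout replicate 1 was left out (difference 0.42, adjusted p = 0.0758 by limma), when wild-type replicate 1, 2 or 3 was (0.0718, 0.111 and 0.0714), and with eBayes without an intensity trend (0.0583).

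Rpa1, the large subunit that carries most of the DNA contact, read 12.08, 12.00 and 12.07 in knockout and 11.85, 11.91 and 11.95 in wild type. The groups did not overlap, but the difference was small and did not pass (0.15 ± 0.08, limma adjusted p = 0.326). The other Rpa1 probe set was likewise higher on all knockout arrays (0.38 ± 0.16, limma adjusted p = 0.193). Rpa3, the small subunit, read 8.50, 7.98 and 7.44 in knockout and 7.50, 7.98 and 8.03 in wild type. Its knockout arrays spanned the wild-type range on both sides (0.14 ± 0.26, 95% interval -0.44 to 0.72).

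**Figure D2:**
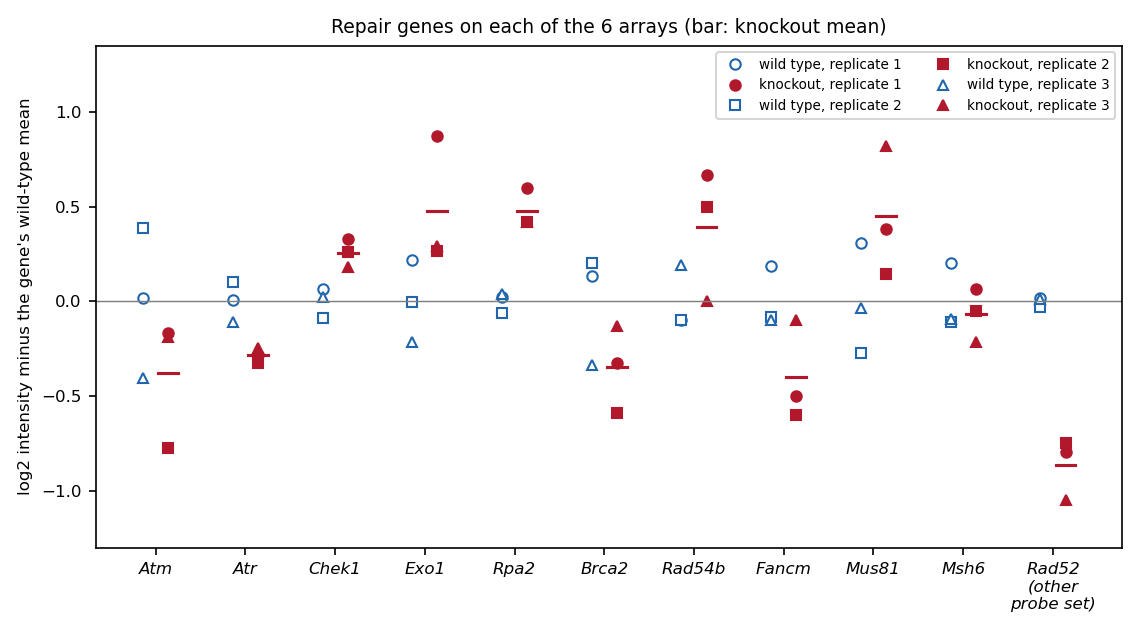
Log2 intensity minus the gene's wild-type mean (vertical axis) for the 10 genes named by rule and for the other Rad52 probe set, with wild type in open blue, knockout in filled red, a marker shape for each replicate number and a bar at the knockout mean. The knockout points of Rpa2, Chek1 and Exo1 lie above all wild-type points, those of Atr and of the other Rad52 probe set below, and the remaining 6 genes overlap.

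Genes of damage sensing and checkpoint signalling gave 0 calls in 10, with 7 means higher in knockout and a median of 0.18. Atr, the kinase that answers single-stranded DNA at stalled forks and resected ends, read 11.86, 11.82 and 11.90 in knockout and 12.15, 12.24 and 12.04 in wild type. It was the only repair gene whose main probe set was lower on all knockout arrays, by a narrow margin, and it did not pass (-0.28 ± 0.08, limma adjusted p = 0.0786). Chek1, the kinase that ATR activates, read 10.88, 10.81 and 10.73 in knockout and 10.62, 10.47 and 10.57 in wild type. All its knockout arrays were the higher on this main probe set, which may match several transcripts (0.26 ± 0.10, limma adjusted p = 0.186). Its other 2 tested probe sets gave 0.28 and 0.28, both with overlap between groups. Atrip, the partner through which ATR finds RPA-coated DNA, and Topbp1, its activator, overlapped between groups (0.23 ± 0.20 and 0.22 ± 0.16).

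Atm, the kinase that answers double-strand breaks, varied more between arrays. It read 9.02, 8.41 and 8.998 in knockout and 9.21, 9.58 and 8.78 in wild type, so that the lowest wild-type array lay under 2 knockout arrays (-0.38 ± 0.23, limma adjusted p = 0.394). The difference was -0.18 when replicate 2 of either group was left out and -0.58 when wild-type replicate 3 was. Both tested probe sets of Atm and both of Atr had lower means in knockout, by 0.38 and 0.55 and by 0.28 and 0.77. Rad50 and Nbn, subunits of the complex that holds broken ends and recruits ATM, differed by 0.22 ± 0.16 and 0.10 ± 0.12. Mdc1, the adaptor that spreads the signal along chromatin, was close to level (-0.07 ± 0.10). Rnf8, the ubiquitin ligase that acts after MDC1, and Trp53bp1, which encodes 53BP1 and restrains end trimming, were higher on all knockout arrays by 0.24 ± 0.14 and 0.14 ± 0.09 and did not pass (limma adjusted p = 0.389 and 0.39).

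End resection was read through Exo1, an exonuclease that lengthens the single-stranded tail, and Blm, a helicase that works with it. Exo1 read 7.84, 7.24 and 7.27 in knockout and 7.19, 6.97 and 6.76 in wild type. Knockout replicate 1 was well above the rest, and the other 2 knockout arrays only just cleared the highest wild-type array. The difference of 0.48 ± 0.21 matched that of Rpa2 in size but not in error, and did not pass (limma adjusted p = 0.229). Without knockout replicate 1 it was 0.28. Blm differed by 0.25 ± 0.17, with overlap.

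The BRCA complexes gave 0 calls in 5. Brca2, which readies resected DNA for strand exchange, read 10.96, 10.69 and 11.15 in knockout and 11.42, 11.48 and 10.94 in wild type. Wild-type replicate 3 lay within the knockout range, and the other 2 wild-type arrays lay above it (-0.35 ± 0.16, limma adjusted p = 0.255). With knockout replicate 2 left out the difference was -0.23, and with wild-type replicate 3 left out -0.52. Brca1, the ubiquitin ligase that promotes resection, read 10.24, 9.85 and 10.16 in knockout and 9.86, 10.04 and 9.83 in wild type (0.18 ± 0.14, limma adjusted p = 0.517). Its other tested probe set, near the filter level, had the opposite sign (-0.21 ± 0.22). Bard1, the partner of BRCA1, Palb2, which bridges BRCA1 to BRCA2, and Brip1, a helicase bound by BRCA1, were dim, with 1 knockout array and 1 or 2 wild-type arrays each under log2 4. Their differences of 0.24, 0.16 and 0.01 had standard errors of 0.27, 0.21 and 0.24.

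Among 8 tested strand exchange factors 0 passed through the main probe set and 7 had higher means in knockout. Rad51b, Rad51c, Rad51d and Xrcc3, related proteins that work as complexes in strand exchange, lay close together through their main probe sets. Rad51b was at 0.26 ± 0.20, Rad51c at 0.17 ± 0.19, Rad51d at 0.19 ± 0.15 and Xrcc3 at 0.15 ± 0.11. Other tested probe sets gave -0.309 ± 0.305 for Rad51c and 0.06 ± 0.16 for Xrcc3. Rad54b, a DNA translocase that helps the strand invade its partner, read 9.86, 9.69 and 9.20 in knockout and 9.10, 9.10 and 9.39 in wild type. Knockout replicates 1 and 2 exceeded all wild-type arrays, and replicate 3 did not (0.39 ± 0.18, limma adjusted p = 0.259). Its difference was 0.25 when knockout replicate 1 was left out and 0.58 when knockout replicate 3 was. In its relative Rad54l knockout replicate 3 was again the lowest of the group, at 7.30, 7.51 and 6.34 against 6.72, 6.46 and 6.97 in wild type (0.33 ± 0.29). Another tested Rad54l probe set was higher on all knockout arrays (0.48 ± 0.20, limma adjusted p = 0.209), and a further one overlapped (0.30 ± 0.22). Rad51ap1, which promotes strand pairing, had 4 tested probe sets with differences of 0.14 to 0.58, all above 0, and 0 of the 4 passed. The one at 0.58 was higher on all knockout arrays (limma adjusted p = 0.0868), and the others overlapped.

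Rad52, which anneals complementary single strands, differed from its neighbours in sign. Its main probe set read 8.80, 8.76 and 8.27 in knockout and 8.78, 9.26 and 8.90 in wild type, with 1 wild-type array inside the knockout range (-0.37 ± 0.19, limma adjusted p = 0.305). The other tested probe set read 6.52, 6.56 and 6.26 in knockout and 7.33, 7.28 and 7.32 in wild type. There the wild-type arrays lay close together and every knockout array was lower. On that probe set Rad52 fell by 0.87 ± 0.16 in log2 (SE, 3 against 3 arrays), with an adjusted p of 0.0102 by limma. The call held when knockout replicate 1 was left out (fell by 0.90, adjusted p = 0.0235 by limma), and of the 6 arrays only the loss of wild-type replicate 3 ended it (0.0502). Of 21 other tested probe sets of the repair genes this was the only one past the threshold, 1 fallen and 0 risen, while 5.04% of such probe sets of all genes fell and 0.994% rose. Which Rad52 transcripts each probe set matches was not analysed here.

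**Figure D3:**
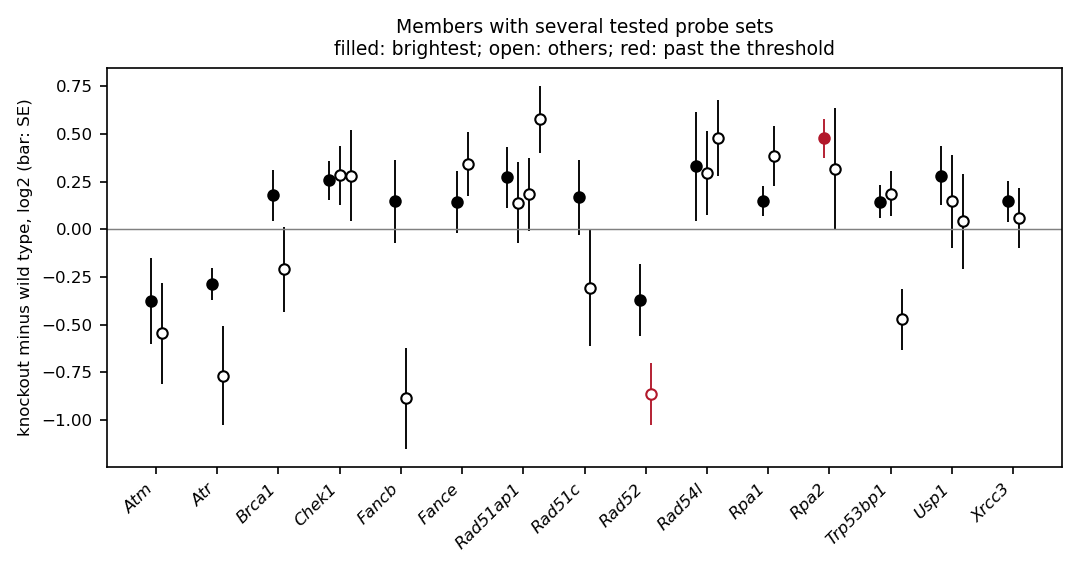
Log2 difference, knockout minus wild type (vertical axis, bar ± SE), for each tested probe set of the 15 repair genes with more than 1, with the brightest filled, the others open and those past the threshold in red. Signs match in 11 genes and differ in Brca1, Fancb, Rad51c and Trp53bp1, and the widest gap lies between the probe sets of Fancb (0.15 and -0.89).

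Probe sets of a gene did not always tell the same story. Of the 15 genes with several tested probe sets, 11 had all differences of 1 sign. In Trp53bp1 the 2 brighter probe sets were higher on all knockout arrays and the dimmest tested one, at 8.32, 8.58 and 8.43 in knockout and 8.65, 9.11 and 8.98 in wild type, was lower on all of them (-0.47 ± 0.16, limma adjusted p = 0.122). In Fancb, a core Fanconi gene, the brighter probe set differed by 0.15 ± 0.22 and the dimmer one by -0.89 ± 0.26, with 1 knockout array under log2 4 (limma adjusted p = 0.0825). When the tested probe sets of each gene were averaged in place of taking the brightest, 31 of 43 genes had the higher mean in knockout and 0 passed, Rpa2 included (0.40, limma adjusted p = 0.301).

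In the Fanconi anaemia pathway 0 of 11 passed, and 9 had higher means in knockout with a median of 0.15. Fancd2 and Fanci, the pair that the core complex marks with ubiquitin, differed by 0.30 ± 0.22 and 0.29 ± 0.14. Fanci read 10.28, 9.86 and 9.93 in knockout and 9.79, 9.70 and 9.69 in wild type, without overlap (limma adjusted p = 0.258), while Fancd2 overlapped. Usp1, which removes that ubiquitin, differed by 0.28 ± 0.16 with knockout replicate 2 (11.40) well above the other 5 arrays (10.61 to 10.87). In the core complex, Fanca, Fancc, Fance, Fancf and Fancl, the ligase itself, had differences of 0.01 to 0.27, and Fancg one of -0.09. Among them Fance alone was higher on all knockout arrays (0.14 ± 0.16). Fancm, the translocase that anchors the complex to DNA, went the other way, at 7.16, 7.06 and 7.56 in knockout and 7.84, 7.57 and 7.56 in wild type, where replicate 3 of both groups read the same (-0.40 ± 0.18, limma adjusted p = 0.253).

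Nucleases that cut branched DNA gave 0 calls in 3. Mus81, on a main probe set that may match several transcripts, read 7.29, 7.05 and 7.73 in knockout and 7.22, 6.64 and 6.88 in wild type. There 1 knockout array lay inside the wild-type range (0.45 ± 0.22, limma adjusted p = 0.29). Without knockout replicate 3 the difference was 0.26. Eme1, its partner, differed by 0.11 ± 0.17, and Slx4, the scaffold that holds such nucleases, by 0.15 ± 0.25. Slx4 was high on knockout replicate 3 alone (6.57, against 5.68 to 5.97 on the other 5 arrays). Msh6, which recognises mismatched bases, read 10.79, 10.68 and 10.51 in knockout and 10.93, 10.62 and 10.63 in wild type, with overlap and a sign that changed when knockout replicate 3 or wild-type replicate 1 was left out (-0.07 ± 0.12, limma adjusted p = 0.816).

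**Figure D4:**
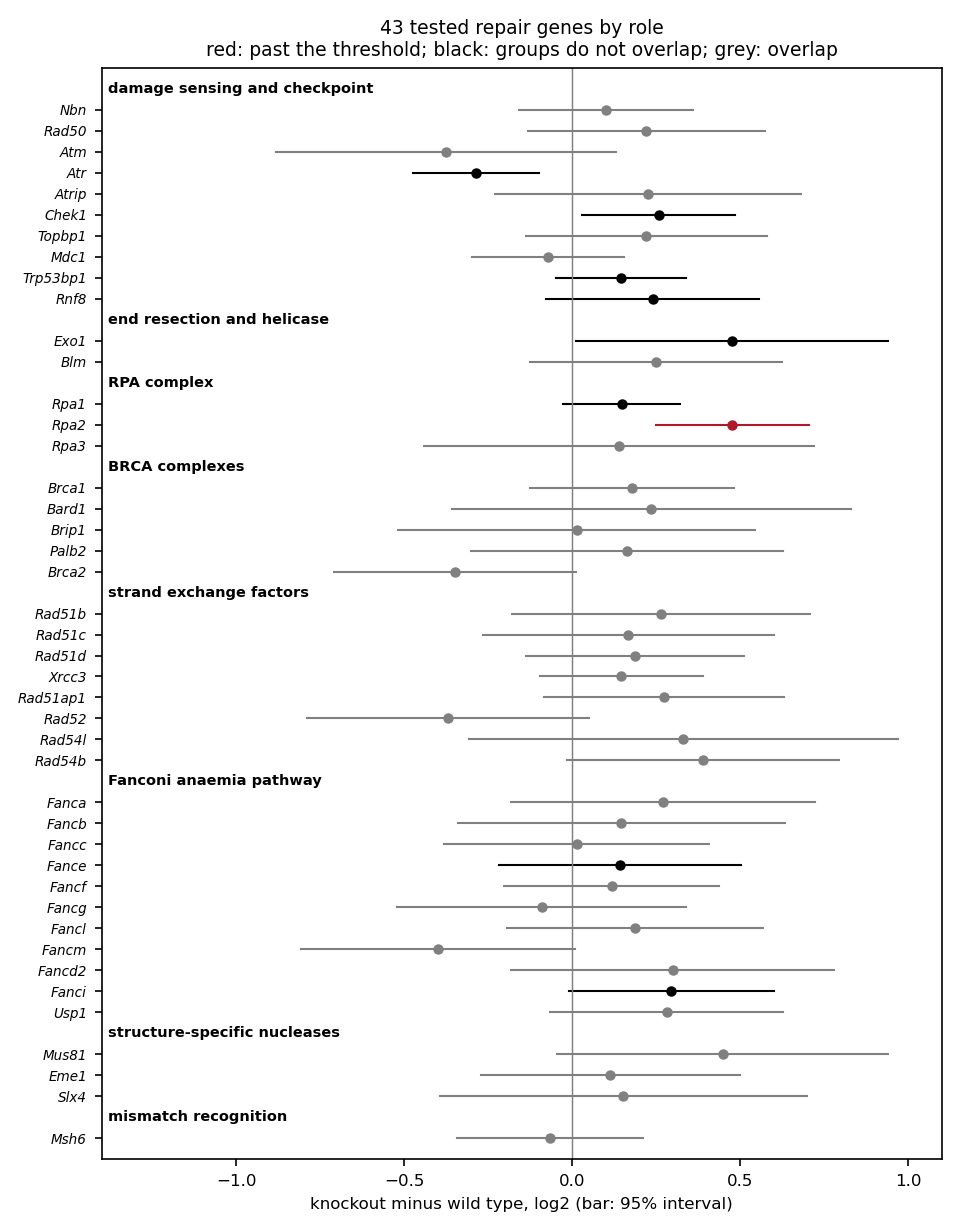
Log2 difference, knockout minus wild type (horizontal axis, point), with its 95% interval (bar) for the 43 tested repair genes, grouped by role, in red where past the threshold, black where the groups do not overlap and grey where they do. Rpa2 is the only red point, and 35 points lie right of 0, most with intervals that cross it.

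Other repair genes, taken from lists set by function, gave 0 calls. Of 39 further recombination and Fanconi genes 26 had higher means in knockout, with a median of 0.10. The lowest p among them belonged to Fignl1, an ATPase of recombination (0.55 ± 0.19, limma adjusted p = 0.124), Top3a, the topoisomerase that works with BLM (0.47 ± 0.16, 0.13), and Ube2t, the ubiquitin donor of FANCL (0.79 ± 0.29, 0.151). Of 13 end-joining genes, whose products seal breaks without a template, 10 had higher means (median 0.19), and the lowest p belonged to Mad2l2 (0.56 ± 0.19, limma adjusted p = 0.131), Xrcc4 (0.43 ± 0.17, 0.192) and Xrcc6 (0.28 ± 0.13, 0.246). All 4 tested mismatch repair partners did (median 0.31), with Msh3 at 0.31 ± 0.14, Pms2 at 0.35 ± 0.17 and Pms1 at 0.31 ± 0.18 (limma adjusted p = 0.256, 0.279 and 0.385).

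Genes special to meiotic recombination had a median of 0.03 in 14 tested and ran from -0.65 to 0.87, with 0 past the threshold. Rec114, a partner of the break-forming enzyme (0.37 ± 0.10), and Brme1 and Meilb2, which bring BRCA2 to meiotic breaks (0.83 ± 0.22 and 0.87 ± 0.27), had the lowest p and did not pass (limma adjusted p = 0.0508, 0.0525 and 0.0862). Rec114, read through a probe set that may match several transcripts, and Brme1, named 4930432K21Rik on the array, were higher on all knockout arrays, and Meilb2, named Hsf2bp there, was not, while Brca2 itself had the lower mean in knockout (-0.35). Outside those 3, and chosen after their values were seen, Dmc1, the meiotic strand exchange enzyme (-0.65 ± 0.25), and Msh4, which steadies crossover intermediates (-0.57 ± 0.25, lower on all knockout arrays), had lower means in knockout (limma adjusted p = 0.171 and 0.227).

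Markers of the cell cycle and of the ovary's cell types were read in the same comparison. DNA replication genes had higher means in 22 of 23, with a median of 0.33. Among them 2 rose. Mcm3, part of the ring that unwinds DNA at forks, differed by 0.56 ± 0.11 on a probe set that may match several transcripts (limma adjusted p = 0.0151). Cdt1, which helps load that ring, differed by 0.37 ± 0.10 (limma adjusted p = 0.0486). Neither passed without knockout replicate 1 (0.54 and 0.40, limma adjusted p = 0.0534 and 0.081), when 19 of 23 had higher means with a median of 0.28. Calls were also 0 of 23 without wild-type replicate 1 or 2, and 1 of 23 without replicate 3 of either group. The summed intensity of the 23 genes was between 42840 and 49350 on knockout arrays and between 37820 and 40890 on wild-type arrays, without overlap. Sums did not overlap either in the pluripotency, pregranulosa, stroma, endothelium, further recombination and end-joining lists. In stroma and endothelium the knockout sums were the lower. Mitosis genes gave 0 calls in 7 (median 0.12, sums of 9640 to 9992 and 9950 to 10880). In pluripotency and early germ cell genes 5 of 7 rose, Sox2, Dppa2, Dppa4, Sall4 and Lin28a (median 2.94, sums of 847.9 to 5397 and 215.3 to 344.7). All 7 were highest on knockout replicate 1. Without that array the same 5 passed with a median of 2.28, and without wild-type replicate 1 only 3 passed.

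General germ cell markers gave 0 calls in 8 (median 0.11, sums of 16610 to 19690 and 14810 to 17840), and pregranulosa markers 0 in 8 (median 0.24, sums of 12720 to 14680 and 11820 to 12260). Stroma (0 of 8, median -0.23, sums of 31940 to 33710 and 36040 to 39720) had no gene past the threshold. These absences of calls also depended on single arrays. Leaving out knockout replicate 3, Ddx4 and Dazl rose (0.59 and 0.71, limma adjusted p = 0.046 and 0.0169) and Dcn fell (-0.45, 0.017). Leaving out knockout replicate 2, Gata4 rose (0.43, limma adjusted p = 0.0427) and Pdgfra fell (-0.42, 0.0416). Leaving out any other array gave no call in the germ cell, pregranulosa and stroma lists. In endothelium Flt1 and Tek fell, 2 of 4, with Pecam1 and Cdh5 under log2 4 on all arrays (sums of 824.6 to 1042 and 1127 to 1320). In macrophages and leukocytes Ptprc and Mrc1 fell, 2 of 6 (sums of 1909 to 3227 and 3186 to 3922), and in red cells Slc4a1 fell, 1 of 3, with Epor under log2 4 throughout (sums of 341.9 to 499.0 and 494.0 to 1359). Without knockout replicate 1, Flt1 alone of these 5 genes passed, and it did not pass without wild-type replicate 3. The part of cell make-up or cell cycle in the higher means of the repair genes was not tested.

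**Figure D5:**
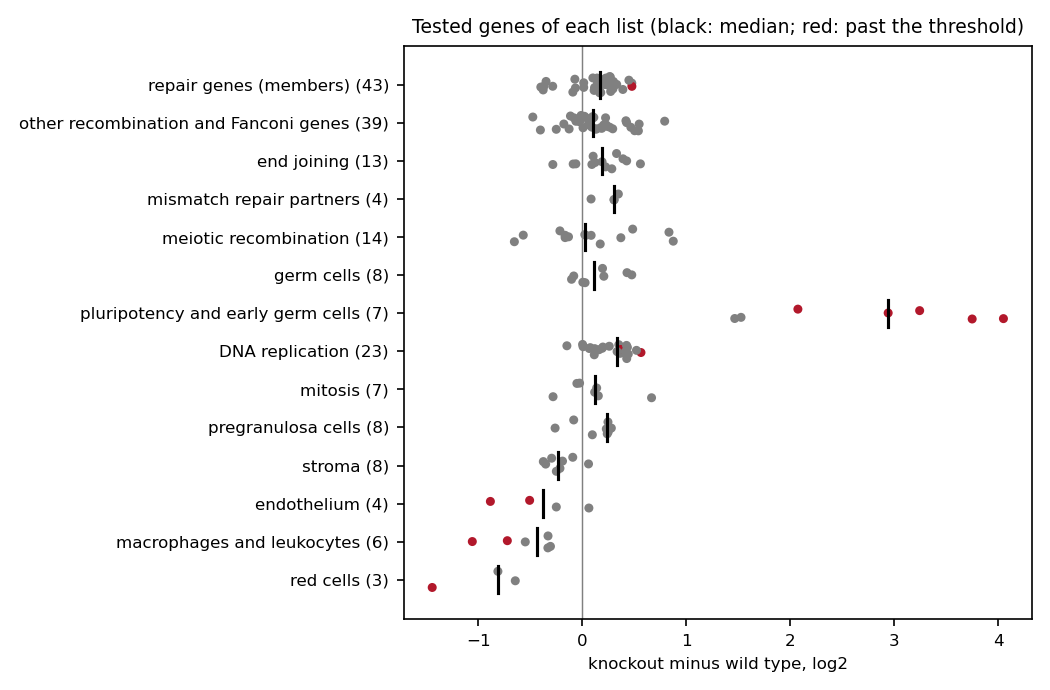
Log2 difference, knockout minus wild type (horizontal axis), of every tested gene in each list (1 point a gene, shifted up or down at random for legibility), with the list's median as a black bar and genes past the threshold in red. The repair genes cluster between -0.4 and 0.48, the DNA replication genes sit further right with a median of 0.33, and the stroma, endothelium, macrophage and red cell lists lie mostly left of 0.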

How the data were processed

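The authors deposited linear intensity values per probe set, made with GCRMA (background adjustment, normalization and probe summary) per the submitters' processing notes, with no version or settings given. GCRMA presses dim values towards a floor, and no detection calls came with them, so differences between dim values are less certain. Apart from that, the 3 arrays per group limit the precision.

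Values were taken to log2, and 64 of 45101 probe sets were left out as controls. A probe set was tested at log2 4 (intensity 16) or more on at least 3 of 6 arrays, which left 22040. Platform annotation gave 34958 probe sets 1 gene, 932 several and 9211 none, and only the first kind named a gene. The 2 genotypes were compared in limma 3.58.1 (R 4.3.3, eBayes with intensity trend, genotype only, 2-sided), Benjamini-Hochberg adjusted over all tested probe sets. The fit was also run on simulated data. Recovery was required there only for changes larger than any seen in the repair genes. Differences are knockout minus wild type, errors the moderated SE, and 0 array pairs were identical. Named with all arrays were genes past the threshold, genes without overlap at p under 0.05, and the widest difference in each role, and from other lists the calls or the 3 lowest p. Rpa1, Rpa3, Brca1, Rad52, Rad54l, Fanci and the dimmest tested probe set of Trp53bp1 were also given by array, chosen after their values were seen. The members and lists were chosen with earlier results of these data known. The other Rad52 probe set was singled out after its values were seen.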

Additional observations from a re-analysis of the deposited data

How the results depend on the processing

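The count of 1 risen gene (Rpa2) fell to 0 with eBayes without trend, with the mean of probe sets, with the replicate block (limma adjusted p = 0.0867 for Rpa2) and at a threshold of 0.01, and ran from 0 to 1 when each array was left out in turn. It stayed at 1 with the other filters, robust eBayes, array weights, quantile normalization, median centring, the constant of 16 added before the log and after removal of the probe sets marked _x or _s, which may match more than 1 transcript. Among the repair genes Chek1, Mus81, Fance and Xrcc3 were read through such probe sets, and so were several DNA replication genes. The count of fallen genes was 0 in all these settings and 1 (Atr) at a threshold of 0.10. Over the alternatives the adjusted p of Rpa2 ran from 0.0107 to 0.301. The median difference moved from 0.17 to 0.20 with array weights and to 0.22 with quantile normalization. The all-gene median was then 0.01 and 0.04. The cause was not tested. Msh6 ran from -0.13 to 0.03 over the arrays left out, namely 0.01 with knockout replicate 3 left out and 0.03 with wild-type replicate 1 left out. Over 18 alternatives 31 to 36 genes had the higher mean in knockout, and 12 changed sign at least once. Same-numbered arrays showed no sign of pairing, since their deviations from the group means correlated at -0.165, -0.247 and -0.168. Between arrays of other numbers the highest such correlation was 0.336. With 3 arrays in a group these values cannot show whether arrays shared a litter or a batch. The all-gene and marker counts without each array were added after seeing the data. The number of arrays limits how small a difference can be seen.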
